A study of Sus scrofa with 9 samples.

Results

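The FOS, JUN and EGR genes encode transcription factors, several of which cells make within minutes of a growth or stress signal. Here 10 of these genes were followed in pig cells, labelled as myoblasts, that carried an inducible double homeobox factor. The genes were FOS, FOSB, FOSL1, FOSL2, JUN, JUNB, JUND, EGR1, EGR2 and EGR3, chosen by symbol out of the 27339 genes of the deposited count table. All 10 passed the filter on low counts, as did 15956 genes in all. The labels give the cells as primary myoblasts, the precursors of skeletal muscle fibres, of Gottingen pigs, used at passages 7 to 9. They carried a transgene that doxycycline switches on: human DUX4 in 3 libraries, pig DUXC in 3 and the fluorescent protein GFP, the control, in 3. All cells received doxycycline at 1 µg/mL for 16 h before harvest, and all grew in F-10 medium with 15% fetal bovine serum and 1% chicken embryo extract, so that serum was present in every group. DUX4 is a factor of the early human embryo whose expression in muscle causes facioscapulohumeral muscular dystrophy, and DUXC is a related double homeobox gene that the pig has.

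FOS and JUN proteins belong to the basic leucine zipper class and pair with each other to form AP-1, the dimer that binds DNA. JUN proteins can also pair among themselves, whereas FOS proteins need a JUN partner. The EGR proteins bind GC-rich DNA through zinc fingers and are held in check by the co-repressors NAB1 and NAB2. FOS, FOSB and EGR1 are textbook immediate early genes, induced through serum response factor (SRF) and its ELK partners without new protein synthesis, and their messengers are short-lived. FOSL1 and FOSL2 respond later and stay up for longer.

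Total counts per library ranged from 36580573 to 44420895. Levels are normalised read counts (CPM, the count scaled to a library of fixed size), given as mean ± SD of n = 3 libraries, and changes are log2 fold changes with their standard error (SE). A CPM value is not scaled for gene length, so levels are compared between groups and never between genes. P-values are two-sided, come from the quasi-likelihood test of edgeR and are Benjamini-Hochberg adjusted over all tested genes, and a gene is said to rise or fall where the adjusted p is under 0.05. Whether a group's 3 libraries came from separate cultures is not in the labels. Each p-value therefore rests on library-to-library spread, part or all of which may be technical. Transgene reads were not analysed here. The fibroblast markers COL1A2, DCN and 8 others summed to at least 55545 CPM in each GFP library and to 27488 to 34914 CPM in each library with a factor. With DUX4, 9 of these 10 markers fell and DPT rose, from 38.4 to 174 CPM. With DUXC, 8 fell, while DPT and PDGFRA rose, PDGFRA from 373 to 925 CPM. The 10 muscle lineage markers in the table summed to only 15.4 to 16.9 CPM in the GFP libraries, 19.3 to 22.1 under DUX4 and 11.13 to 13.1 under DUXC, and MYOD1, a defining marker, had 1 count over the 3 GFP libraries. The defining markers of the labelled cell type were thus near absent. These sums hold changes in both directions. Of the 6 muscle lineage markers tested, ITGA7 and MYF5 rose with DUX4, while DES and CKM fell. With DUXC, PAX7, PAX3 and MYF5 rose, while DES and ITGA7 fell. ITGA7 had 5.77, 14.8 and 4.07 CPM and DES 7.15, 2.10 and 1.07 CPM with GFP, DUX4 and DUXC. Smooth muscle and pericyte markers (8 genes) summed to 3081 to 3287 CPM under GFP, 1299 to 1414 under DUX4 and 778 to 804 under DUXC. Neural markers (5 genes) summed to 9.16 to 9.81, 8.61 to 9.29 and 17.8 to 19.3 CPM in the same groups, and immune cell markers (7 genes) to at most 11.6, 8.54 and 7.90 CPM. Adipocyte markers (6 genes) summed to at most 1.08 CPM under GFP, 4.87 to 5.37 under DUX4 and 34.3 to 38.97 under DUXC, and endothelial markers (6 genes) to at most 17.8, 13.4 and 35.8 CPM. In RNA from whole cultures, fewer cells of a type and less RNA per cell cannot be told apart, and the part that these marker changes have in the results below was not tested.

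With DUX4, FOS, FOSB, FOSL1, JUN and EGR2 rose, FOSL2, EGR1 and EGR3 fell, and JUNB and JUND did not pass. Thus 8 of the 10 genes changed against GFP, beside 64.8% of all tested genes (32.9% higher and 31.9% lower), and for 8 of the 10 there was no overlap between DUX4 and GFP libraries, beside 67.0% of all genes. At least 2-fold rises were found in 4 of the 10, beside 10.5% of all genes, and an at least 2-fold fall in 1, beside 5.26%. With DUXC, 7 of the 10 rose and FOSL1, FOSL2 and JUND fell, beside 82.5% of all genes that changed (40.2% higher and 42.3% lower), and the libraries overlapped for none of the 10, beside 83.5% of all genes without overlap. Here 5 of the 10 rose at least 2-fold, beside 21.3% of all genes, and FOSL2 fell at least 2-fold, beside 7.97%. The median size of the change, regardless of its sign, was 0.75 on the log2 scale for the 10 genes and 0.30 for all tested genes with DUX4, and 1.14 and 0.59 with DUXC. Both comparisons share the same 3 GFP libraries. An exact permutation test of 3 libraries against 3 cannot go below p = 0.1, so no such test is given.

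**Figure D1:**
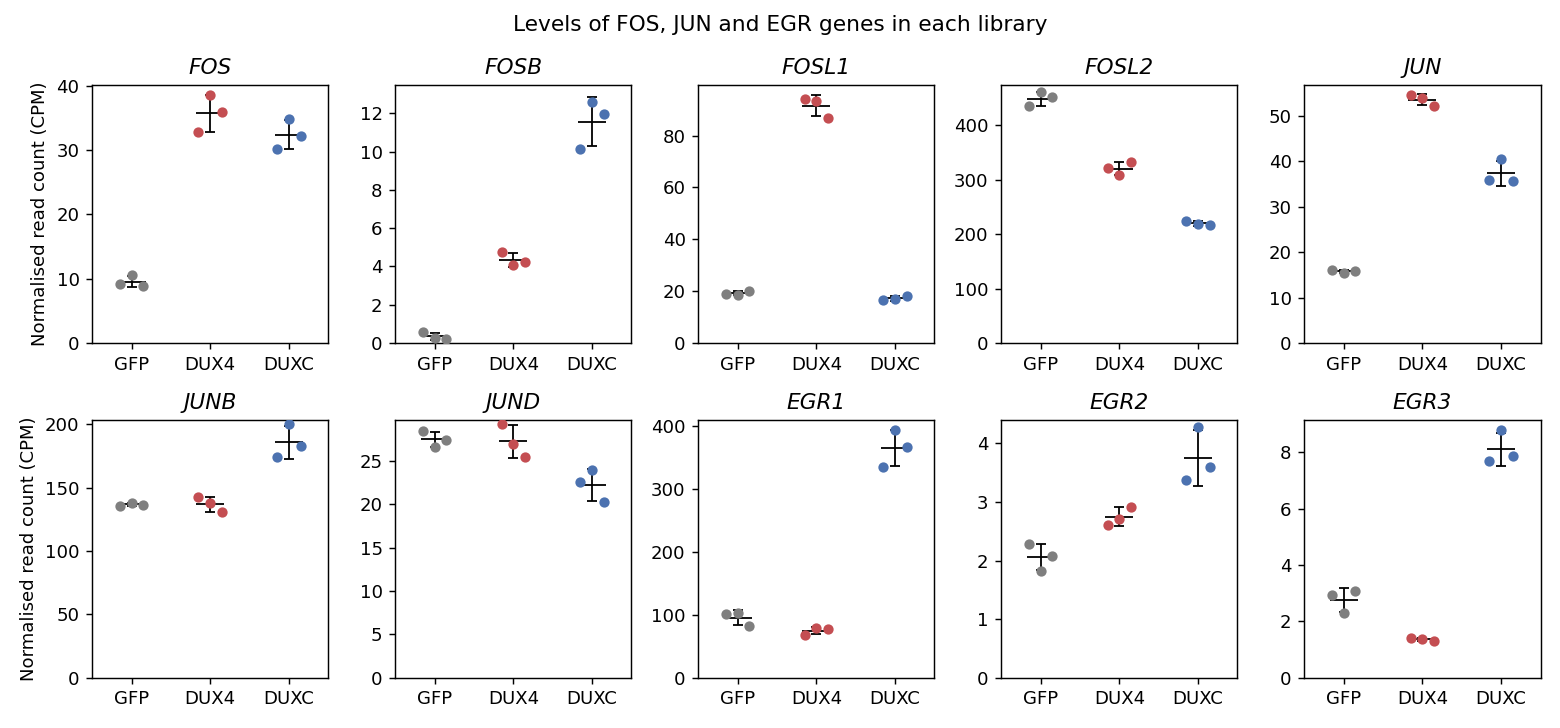
Level of each of the 10 genes in every library, as normalised read count (CPM, linear axis from 0, scaled separately for each gene), by group. Coloured points are the 3 libraries of a group and black bars the mean ± SD. FOSL1 is highest with DUX4 (86.8 to 94.3 CPM), EGR1 and EGR3 are highest with DUXC, and FOS and JUN are above GFP in both.

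FOS, the founding member of its family (chromosome 7, 98449508 to 98451971 in Sscrofa11.1, all positions from RefSeq's table of that build), rose with both factors by similar amounts. It had 9.15, 10.5 and 8.90 CPM in the GFP libraries, 32.8, 38.6 and 35.9 CPM with DUX4 and 30.3, 34.9 and 32.2 CPM with DUXC. All 6 libraries with a factor lay above all 3 with GFP. The rise was 1.91 (SE 0.068, adjusted p = 2.37e-23) with DUX4, a fold of 3.76, and 1.77 (SE 0.068, adjusted p = 1.32e-22) with DUXC, a fold of 3.41. The libraries of the 2 factors overlapped, and their difference was a DUX4 minus DUXC log2 of 0.14 (95% interval 0.03 to 0.26, adjusted p = 0.0229). This call was lost in 7 of 17 alternatives, among them scaling by library size alone (0.04, adjusted p = 0.508) and leaving out DUX4 replicate 2, DUXC replicate 1 or DUXC replicate 3 (adjusted p = 0.15, 0.146 and 0.057).

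FOSB, a close relative of FOS and also an immediate early gene (chromosome 6, 51836780 to 51844531), showed the widest range of group means of the 10 genes on the log2 scale. It was scarce with GFP, with 23, 11 and 8 counts in the 3 libraries, or 0.563, 0.282 and 0.205 CPM. With DUX4 it had 4.77, 4.06 and 4.23 CPM and with DUXC 10.1, 12.6 and 11.98 CPM. The 3 groups did not overlap, in the order GFP, DUX4, DUXC. The rise was 3.61 (SE 0.20, adjusted p = 5.83e-20) with DUX4, a fold of 12.2, and 5.02 (SE 0.17, adjusted p = 1.96e-28) with DUXC, a fold of 32.5. Larger rises were found in 364 of the tested genes (2.28%) with DUX4 and in 804 (5.04%) with DUXC. The 2 factors differed by -1.41 as DUX4 minus DUXC (SE 0.10, adjusted p = 1.39e-16). The size of the rise moved with the GFP library left out, from 3.34 to 4.14 with DUX4 and from 4.75 to 5.54 with DUXC.

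FOSL1, which encodes FRA-1, a later FOS-family protein whose gene is itself driven by AP-1 and by ERK signalling (chromosome 2, 6430158 to 6436173), was high with DUX4 and not with DUXC. Its GFP libraries had 18.8, 18.5 and 20.1 CPM, its DUX4 libraries 94.3, 93.4 and 86.8 CPM and its DUXC libraries 16.4, 17.1 and 18.0 CPM. The DUX4 libraries stood far above all 6 others, and the DUXC libraries lay just below the GFP libraries. With DUX4 the gene rose by 2.26 (SE 0.046, adjusted p = 4.11e-39), a fold of 4.78. With DUXC it was lower by a little, -0.16 (95% interval -0.27 to -0.05, adjusted p = 0.00747), and this call was lost in 5 of 17 alternatives, down to -0.03 (adjusted p = 0.588) with scaling by library size alone. The difference between the factors was 2.41 (SE 0.046, adjusted p = 1.42e-40), a fold of 5.33, and only 162 of the tested genes (1.02%) had a larger DUX4 minus DUXC value.

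FOSL2, which encodes FRA-2 (chromosome 3, 110820403 to 110842903), fell with both factors. It went from 449 ± 12.8 CPM with GFP to 321 ± 11.8 CPM with DUX4 and to 220.0 ± 4.29 CPM with DUXC. The libraries had 436, 461 and 452 CPM with GFP, 322, 309 and 332 CPM with DUX4 and 225, 218 and 217 CPM with DUXC, 3 groups without overlap. The change was -0.49 (SE 0.031, adjusted p = 5.68e-19) with DUX4 and -1.03 (SE 0.031, adjusted p = 3.6e-32) with DUXC. The level with DUX4 was 1.46-fold that with DUXC (log2 0.54, SE 0.031, adjusted p = 4.94e-21).

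The balance within the FOS family therefore differed between the groups. The ratio of 2 genes' counts within a library does not depend on how libraries are scaled, and only its change between groups is read here, since the genes differ in length. The log2 ratio of FOSL1 to FOSL2 was -4.55 ± 0.07 with GFP, -1.81 ± 0.11 with DUX4 and -3.68 ± 0.10 with DUXC, a shift towards FOSL1 of 2.74 with DUX4 and of 0.87 with DUXC. The ratio of FOS to FOSL2 shifted by 2.40 with DUX4 and by 2.80 with DUXC. That of FOSB to FOS shifted by 1.85 with DUX4 and by 3.40 with DUXC. In each of these ratios the 3 libraries of a group lay apart from those of the other groups.

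JUN, the AP-1 subunit that pairs with every FOS protein and can also pair with itself (chromosome 6, 153686425 to 153687635), rose with both factors and more with DUX4. It had 16.1, 15.4 and 15.8 CPM with GFP, 54.7, 53.9 and 52.2 CPM with DUX4 and 35.8, 40.6 and 35.8 CPM with DUXC. The 3 groups did not overlap. The rise was 1.77 (SE 0.050, adjusted p = 6.52e-33) with DUX4, a fold of 3.40, and 1.25 (SE 0.052, adjusted p = 1.57e-26) with DUXC, a fold of 2.37. The difference between the factors was 0.52 (95% interval 0.43 to 0.61, adjusted p = 1.38e-14).

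JUNB, a JUN relative that can oppose JUN at some promoters (chromosome 2, 66214086 to 66219435), was higher with DUXC than in either other group. With GFP it had 136, 138 and 136 CPM, and with DUX4 142, 138 and 131 CPM, on both sides of the GFP libraries. With DUXC it had 174, 200.1 and 183 CPM, above all other libraries. The DUX4 minus GFP value was 0.00 with a 95% interval of -0.07 to 0.08 (adjusted p = 0.96). The rise with DUXC was 0.44 (SE 0.038, adjusted p = 5.52e-13), a fold of 1.36, and the factors differed by -0.44 as DUX4 minus DUXC (SE 0.038, adjusted p = 6.15e-13).

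JUND, the JUN relative that is usually present in resting cells (chromosome 2, 59530991 to 59532846), had the narrowest span of group means of the 10 genes on the log2 scale. It had 28.4, 26.7 and 27.4 CPM with GFP, 29.3, 27.0 and 25.5 CPM with DUX4 and 22.6, 23.9 and 20.3 CPM with DUXC. The DUX4 and GFP libraries overlapped (log2 -0.01, 95% interval -0.12 to 0.10, adjusted p = 0.862), and the DUXC libraries lay below both. The fall with DUXC was -0.30 (SE 0.057, adjusted p = 5.28e-06), and the level with DUX4 was 1.22-fold that with DUXC (log2 0.29, SE 0.056, adjusted p = 1.01e-05).

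Among the JUN genes, the ratio of JUN to JUNB shifted by 1.76 with DUX4 and by 0.80 with DUXC, and that of JUN to JUND by 1.78 and 1.55. For JUN to JUNB, the log2 ratio was -3.12 ± 0.05 with GFP, -1.35 ± 0.03 with DUX4 and -2.31 ± 0.04 with DUXC, with no overlap between groups.

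EGR1, the EGR gene most often used as a marker of recent growth factor signalling (chromosome 2, 140440829 to 140445302), was far higher with DUXC than in the other groups. The libraries had 102, 103 and 81.4 CPM with GFP, 68.4, 79.6 and 76.6 CPM with DUX4 and 335, 393 and 367 CPM with DUXC. Every DUXC library stood far above all 6 others. The rise with DUXC was 1.94 (SE 0.11, adjusted p = 3.39e-06), a fold of 3.83, and the DUX4 minus DUXC difference was -2.29 (SE 0.12, adjusted p = 1.43e-06), so that the level with DUXC was 4.88-fold that with DUX4. The DUX4 libraries lay just below the lowest GFP library, and the fall of -0.35 (SE 0.12, adjusted p = 0.0384, 0.000186 to 0.116 over the alternatives) passed narrowly. It lost its call in 9 of 17 alternatives, among them leaving out DUX4 replicate 1, 2 or 3, GFP replicate 1 or 2, or DUXC replicate 3 (adjusted p = 0.116, 0.0572, 0.0793, 0.114, 0.116 and 0.0632).

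EGR2, known as KROX20 and needed for myelin formation in Schwann cells (chromosome 14, 66280665 to 66291308), rose in small steps from GFP to DUX4 to DUXC. It had 2.28, 1.82 and 2.08 CPM with GFP, 2.61, 2.71 and 2.92 CPM with DUX4 and 3.38, 4.28 and 3.59 CPM with DUXC. The groups did not overlap. The rise was 0.41 (SE 0.14, adjusted p = 0.00943) with DUX4 and 0.87 (SE 0.13, adjusted p = 1.04e-07) with DUXC, and the factors differed by -0.45 as DUX4 minus DUXC (SE 0.13, adjusted p = 0.00105). Without GFP replicate 2 the rise with DUX4 was 0.33 and lost its call (adjusted p = 0.0589). Of the 10 genes, EGR2 is the only one whose annotated span overlaps another gene, ADO, which encodes a thiol dioxygenase. ADO had 35.1 ± 1.58 CPM with GFP, 37.3 ± 0.313 CPM with DUX4 and 27.8 ± 0.554 CPM with DUXC, and so fell with DUXC (-0.34, adjusted p = 6.43e-09) where EGR2 rose. The strand setting of the counting is not given in the sources used here, and EGR2 counts may hold reads of ADO.

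EGR3, an EGR gene that depends on growth factor and calcium signals and is needed for muscle spindles (chromosome 14, 6943184 to 6948507), moved in opposite directions with the factors. It had 2.94, 2.29 and 3.08 CPM with GFP, 1.40, 1.38 and 1.31 CPM with DUX4 and 7.69, 8.79 and 7.87 CPM with DUXC. The groups did not overlap, in the order DUX4, GFP, DUXC. It fell by 1.02 on the log2 scale with DUX4 (SE 0.15, adjusted p = 5.74e-08), from 2.77 ± 0.423 to 1.36 ± 0.0487 CPM, and rose by 1.55 with DUXC (SE 0.11, adjusted p = 6.78e-18). The DUX4 minus DUXC difference was -2.57 (SE 0.12, adjusted p = 3.56e-24), a 5.95-fold higher level with DUXC.

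**Figure D2:**
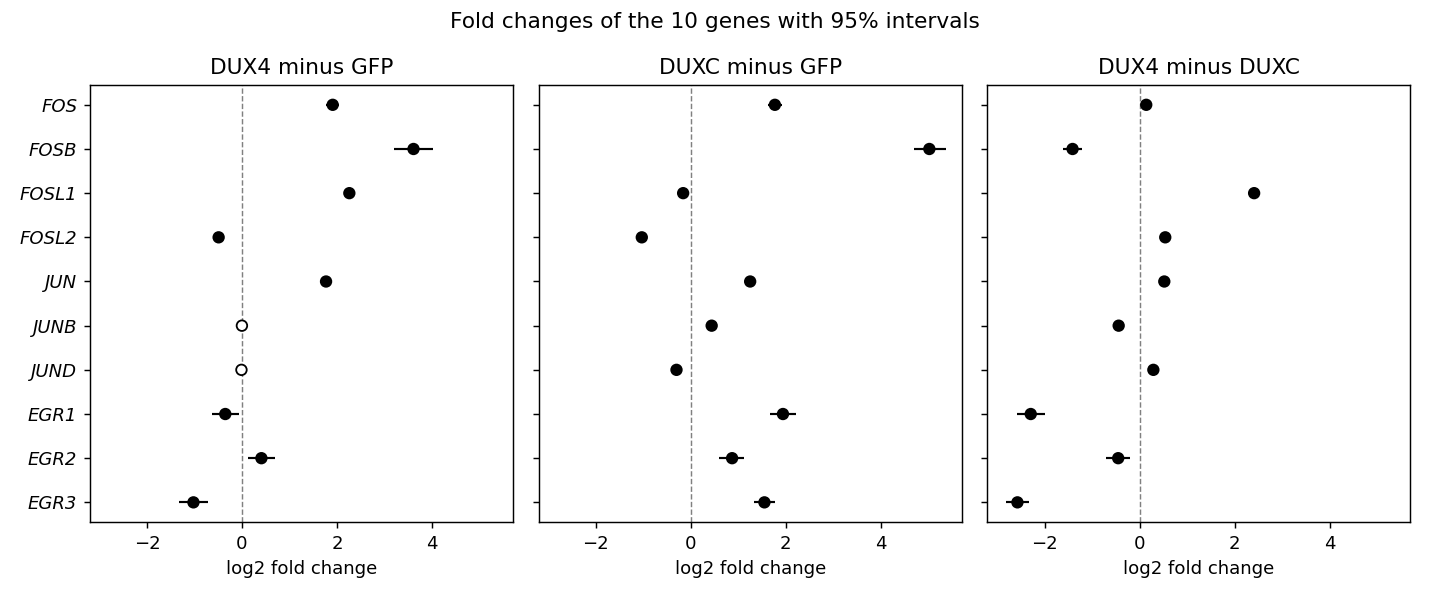
Log2 fold change of each of the 10 genes (horizontal axis) for DUX4 minus GFP, DUXC minus GFP and DUX4 minus DUXC, with 95% intervals as lines. Filled points have an adjusted p under 0.05 (edgeR) and open points do not. In the panel on the right, FOSL1 stands at 2.41, while EGR1 and EGR3 stand at -2.29 and -2.57.

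In the direct comparison of the factors all 10 genes passed, 5 higher with DUX4 (FOS, FOSL1, FOSL2, JUN and JUND) and 5 higher with DUXC (FOSB, JUNB, EGR1, EGR2 and EGR3), beside 82.4% of all tested genes (40.8% higher with DUX4 and 41.6% higher with DUXC). The libraries overlapped only for FOS, beside 83.0% of all genes without overlap. All 3 EGR genes were thus higher with DUXC. Differences of at least 2-fold were found for FOSL1, higher with DUX4 (9.83% of all genes), and for FOSB, EGR1 and EGR3, higher with DUXC (20.7% of all genes). The median size of the difference, regardless of sign, was 0.53 for the 10 genes and 0.60 for all tested genes. The ratio of EGR1 to FOS in a library shows the same split without any scaling: its log2 was 3.32 ± 0.14 with GFP, 1.06 ± 0.03 with DUX4 and 3.49 ± 0.02 with DUXC, a shift of -2.25 with DUX4 and of 0.17 with DUXC. For this ratio the GFP libraries (3.19 to 3.48) and the DUXC libraries (3.47 to 3.51) overlapped.

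Libraries of a group also differed from each other in these genes, and most clearly with DUXC. DUXC replicate 2 had the highest level in its group for 8 of the 10 genes (FOS, FOSB, JUN, JUNB, JUND, EGR1, EGR2 and EGR3), by 0.11 to 0.20 on the log2 scale above the group mean, and DUXC replicate 1 had the lowest for 7 of the 10. The same library was the highest of its group for 18 of 29 other immediate early genes and for 38.4% of 12896 genes with a mean of at least 1 CPM. Among the DUX4 libraries, replicate 1 was the highest for 6 of the 10 genes (FOSB, FOSL1, JUN, JUNB, JUND and EGR3) and replicate 3 the lowest for 5. DUX4 replicate 2 was the highest for FOS (0.11 above its group mean) and EGR1 (0.09), and GFP replicate 3 was the lowest for EGR1 (-0.22), FOS (-0.09) and FOSB (-0.55). The median coefficient of variation between the libraries of a group was 6.70% with GFP, 5.18% with DUX4 and 7.35% with DUXC for the 10 genes, beside 3.82%, 4.30% and 3.75% for the genes of at least 1 CPM. The widest was FOSB with GFP at 53.7%, where the counts were 8 to 23, and the narrowest JUNB with GFP at 0.781%.

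**Figure D3:**
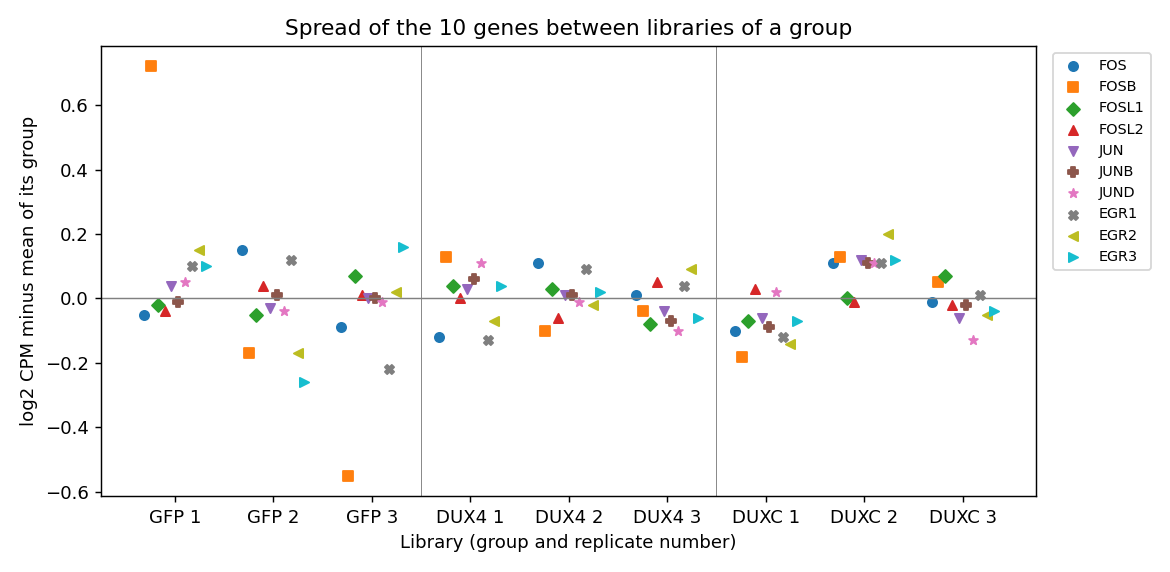
Deviation of each of the 10 genes in each library from the mean of its group, in log2 CPM. Each symbol is a gene, and vertical lines separate the groups. In DUXC replicate 2, 8 of the 10 genes lie 0.11 to 0.20 above 0, and FOSB spreads from -0.55 to 0.72 in the GFP libraries, where it had 8 to 23 counts.

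The remaining results set the 10 genes beside their partners, their regulators and their known targets, in lists written from general knowledge. Their counts stand beside 32.9% of all tested genes that rose and 31.9% that fell with DUX4, and 40.2% and 42.3% with DUXC. Of the EGR relatives, EGR4 had 1 count over the GFP libraries, 8 with DUX4 and 201 with DUXC. The ratio to GFP was 7.71 (95% counting interval 1.03 to 342) with DUX4 and 200.9 (35.7 to 7974.5) with DUXC, intervals that cover counting error only. The rise with DUXC passed (adjusted p = 3.18e-17), whereas that with DUX4 (adjusted p = 0.0467) lost its call without DUX4 replicate 1, DUXC replicate 1 or 2, or GFP replicate 1 or 3 (adjusted p = 0.268, 0.0523, 0.0501, 0.141 and 0.13). The co-repressor NAB2, itself an EGR target, went from 28.9 ± 0.605 CPM to 37.9 ± 1.79 with DUX4 (log2 0.39, adjusted p = 1.76e-09) and stood at 30.9 ± 2.37 with DUXC (adjusted p = 0.0716), a value that passed as higher in 6 of 17 alternatives, among them library size alone and leaving out DUXC replicate 1. NAB1 rose with both, by 0.21 with DUX4 and by 0.48 with DUXC (adjusted p = 3.14e-06 and 1.67e-16).

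Other basic leucine zipper genes, whose products can pair with FOS or JUN or bind related DNA, rose and fell with DUX4 in shares close to those of all genes. Of 21 tested, 7 rose and 7 fell with DUX4, beside 32.9% and 31.9% of all genes. The median log2 was 0.06 beside 0.00 for all genes. With DUXC, 9 rose and 11 fell, or 8 with scaling by library size alone. The median with DUXC was -0.09 beside -0.03 for all genes, or 0.04 beside 0.094 with that scaling. Scaling by library size alone shifts the median of all genes by 0.125 for DUXC minus GFP. ATF3, a stress-induced partner of JUN, rose from 8.46 ± 0.435 CPM to 20.7 ± 1.26 with DUX4 and to 47.2 ± 2.25 with DUXC (log2 1.29 and 2.48, adjusted p = 3.11e-23 and 8.09e-37). The cyclic AMP response factors CREM and CREB1 rose with DUXC and did not pass with DUX4. CREM had 10.4, 10.03 and 54.2 CPM and CREB1 33.0, 32.3 and 117 CPM with GFP, DUX4 and DUXC, and both differed between the factors (DUX4 minus DUXC -2.43 and -1.85, adjusted p = 6.86e-38 and 5.93e-36). ATF5 fell with both, from 125 ± 2.89 CPM to 81.3 ± 3.47 and 42.9 ± 0.984.

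The genes of SRF, through which FOS and EGR1 are induced, and of its cofactors moved in both directions. SRF itself fell from 62.2 ± 1.69 CPM to 48.6 ± 1.78 with DUX4 and to 39.4 ± 0.888 with DUXC (log2 -0.35 and -0.66, adjusted p = 4.71e-11 and 3.86e-20). Its actin-regulated co-activators MKL1 and MKL2 also fell, by 0.29 and 0.32 with DUX4 and by 0.37 and 0.48 with DUXC (largest adjusted p = 4.17e-07). Of the ERK-regulated SRF partners, ELK3 rose with DUX4 (log2 0.30, adjusted p = 1.46e-10) and fell with DUXC (-0.27, adjusted p = 2.61e-09), whereas ELK4 and ELK1 rose with DUXC (0.56 and 0.30). In all, 1 of 6 tested genes rose and 3 fell with DUX4, and 2 rose and 4 fell with DUXC, with medians of -0.20 and -0.32.

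Among 28 kinases and related genes that carry signals to AP-1, 8 rose and 10 fell with DUX4 (median -0.02), and 11 rose and 17 fell with DUXC, or 15 with scaling by library size alone (median -0.41). MAPK3, which encodes an ERK kinase, fell from 144 ± 6.26 CPM to 109 ± 5.63 with DUX4 and to 75.7 ± 2.86 with DUXC (log2 -0.39 and -0.92, adjusted p = 1.43e-12 and 4.79e-25). MAP2K1, the ERK activator MEK1, rose with DUX4 and fell with DUXC, from 39.1 ± 2.08 CPM to 55.3 ± 1.31 and 26.3 ± 0.385 (log2 0.50 and -0.57, adjusted p = 1.15e-14 and 1.02e-15).

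Of 17 feedback and output genes of ERK signalling, 13 rose and 4 fell with DUX4 (median 0.51), beside 32.9% of all genes that rose. With DUXC, 12 rose and 4 fell (median 0.39), beside 40.2%. The phosphatase gene DUSP5 rose from 9.43 ± 1.24 CPM to 23.8 ± 1.01 with DUX4 and to 75.6 ± 4.41 with DUXC, and the receptor signalling inhibitor gene SPRY1 from 5.75 ± 0.607 CPM to 17.4 ± 0.484 and 40.0 ± 0.229. DUSP6, the ERK-specific phosphatase, followed the direction of EGR3, with 32.3 ± 0.242 CPM under GFP, 19.3 ± 0.825 under DUX4 and 47.7 ± 2.60 under DUXC (log2 -0.74 and 0.57, adjusted p = 5.77e-18 and 1.19e-15). SPRED1 and SPRED3, inhibitors of RAS signalling, were higher with DUX4 than with DUXC (DUX4 minus DUXC 0.85 and 1.11, adjusted p = 1.12e-27 and 1.41e-27).

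Of 29 other immediate early genes, 14 rose and 12 fell with DUX4 (median 0.06), and 16 rose and 11 fell with DUXC (median 0.18). HBEGF, a growth factor of the EGF family, and IER3, a survival gene, were high with DUX4, as FOSL1 was. HBEGF had 19.6 ± 0.483 CPM under GFP, 72.5 ± 4.36 under DUX4 and 21.4 ± 1.48 under DUXC, and IER3 50.1 ± 1.22, 162 ± 1.79 and 52.6 ± 3.36 CPM. The DUXC minus GFP value of HBEGF, 0.13 (adjusted p = 0.029), lost its call in several alternatives, among them leaving out DUXC replicate 1 or 2 or GFP replicate 1 or 2 (adjusted p = 0.11, 0.154, 0.11 and 0.0934). Both genes differed between the factors (1.76 and 1.62, adjusted p = 2.38e-33 and 1.88e-37). CTGF, a matricellular protein gene, had 469 ± 17.2 CPM under GFP, 303 ± 2.81 under DUX4 and 3142 ± 50.1 under DUXC, down with one factor and up with the other as EGR3 was (log2 -0.63 and 2.75, adjusted p = 8.24e-24 and 3.86e-50). RHOB, a small GTPase gene, rose to 84.9 ± 3.67 CPM with DUX4 and to 498 ± 30.2 with DUXC from 63.5 ± 1.15, and IER5 had 60.3 CPM with GFP, 61.8 CPM with DUX4 and 192 CPM with DUXC. The synaptic immediate early gene ARC, named here after its values were seen, went from 17 counts over the GFP libraries to 8.45 ± 0.896 CPM with DUX4 and 25.97 ± 3.47 CPM with DUXC.

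Proteins that bind AU-rich elements, the signals that make FOS-type messengers short-lived, included KHSRP, a decay factor, which rose from 130.1 ± 1.67 CPM to 156 ± 1.26 with DUX4 and to 339 ± 5.16 with DUXC (log2 0.26 and 1.38, adjusted p = 3.1e-10 and 4.93e-38). Of 7 tested, 5 rose and 1 fell with DUX4, and 3 rose and 2 fell with DUXC, or 5 and 2 with scaling by library size alone. Among 8 genes of the ubiquitin machinery that degrades JUN and FOS proteins, 4 fell with DUX4, or 3 with scaling by library size alone, and the others did not pass, while 4 rose and 3 fell with DUXC. FBXW7, which targets phosphorylated JUN, had 25.7 ± 1.57, 25.6 ± 1.07 and 54.9 ± 1.32 CPM with GFP, DUX4 and DUXC (DUXC minus GFP 1.10, adjusted p = 2.74e-26). RFWD2, which encodes the JUN ubiquitin ligase COP1, fell with DUX4 and rose with DUXC (log2 -0.34 and 0.59, adjusted p = 2.75e-11 and 1.27e-20).

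**Figure D4:**
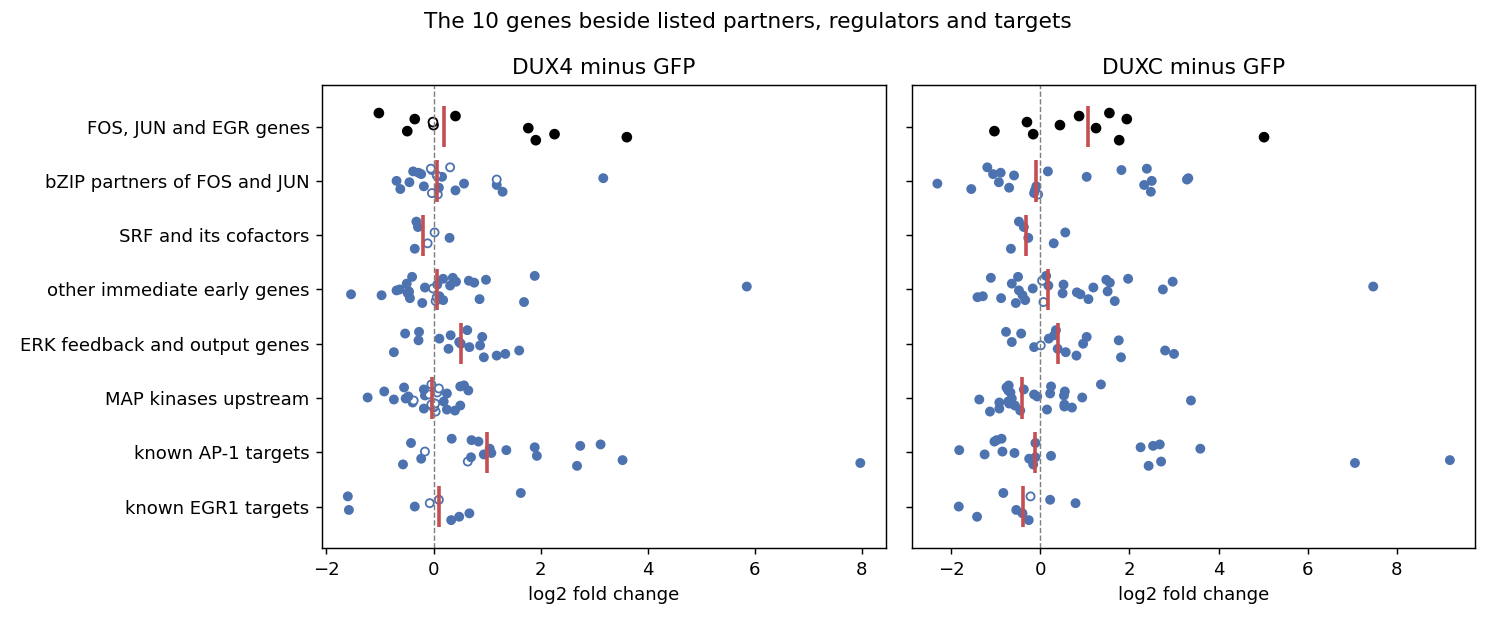
Log2 fold changes against GFP of the 10 genes (black, top row) and of the tested genes of 7 lists (blue), with DUX4 on the left and DUXC on the right. Filled points have an adjusted p under 0.05 (edgeR), and red lines are list medians. The median of the known AP-1 targets is 1.00 with DUX4 and -0.11 with DUXC, and that of the 10 genes is 0.21 and 1.06.

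Of 20 known AP-1 targets tested, 15 rose and 3 fell with DUX4, beside 32.9% of all genes that rose. The median was 1.00 beside 0.00 for all genes. With DUXC, 9 rose and 11 fell, or 8 with scaling by library size alone. The median with DUXC was -0.11 beside -0.03 for all genes, or 0.02 beside 0.094 with that scaling. MMP3 had no count with GFP, and both medians are the same with it at its bound against 3 counts over the group. The collagenase gene MMP1 rose with both, from 7.29 ± 0.789 CPM to 46.9 ± 1.92 and 39.3 ± 1.88 (log2 2.68 and 2.43, adjusted p = 1.08e-36 and 4.74e-35). The cytokine gene IL6 rose from 12.9 ± 0.748 CPM to 26.9 ± 1.58 with DUX4 and to 156 ± 9.27 with DUXC. Among the targets that rose with DUX4 and fell with DUXC were the heme oxygenase gene HMOX1 (789 ± 16.9, 2025 ± 109 and 224 ± 5.97 CPM with GFP, DUX4 and DUXC), the cyclin gene CCND1 (341 ± 8.01, 656 ± 11.2 and 143 ± 5.62 CPM) and the intermediate filament gene VIM, with DUX4 minus DUXC differences of 3.18, 2.20 and 1.88 (adjusted p = 4.36e-48, 1.65e-45 and 3e-43). MMP2, PLAU and FN1 fell with DUX4, by 0.57, 0.23 and 0.42 on the log2 scale.

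Of 9 known EGR1 targets tested, 4 rose and 3 fell with DUX4 (median 0.10), and 2 rose and 6 fell with DUXC (median -0.40), beside 42.3% of all genes that fell. THBS1, which encodes a matrix glycoprotein, fell from 17305 ± 69.5 CPM to 4856 ± 186 with DUXC (log2 -1.83, adjusted p = 7.68e-43), and the growth factor gene PDGFA from 21.9 ± 0.992 to 8.18 ± 1.41 CPM (log2 -1.42, adjusted p = 7.79e-20). The adhesion receptor gene ICAM1 rose with DUXC (log2 0.22, adjusted p = 0.000207). With DUX4, VEGFA and TGFB1 rose, by 1.63 and 0.67 on the log2 scale, and FGF2 fell by 1.58 (adjusted p = 1.12e-39, 7.27e-17 and 1.43e-17).

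For the 7 genes whose group means spanned at least 1 on the log2 scale, the genes of most similar pattern were sought among 11702 tested genes with a symbol of their own and a mean of at least 1 CPM. Likeness was the root mean square difference of log2 CPM over the 9 libraries after each gene was centred on its own mean, so that small values mean parallel profiles. The 9 libraries fall into 3 groups, and many genes share any such profile. Nearest to FOSL1 were RCAN1 (difference 0.05), with 94.98 ± 1.32 CPM under GFP, 457 ± 5.55 under DUX4 and 87.0 ± 2.18 under DUXC, then ANLN (0.09) and IGSF9B (0.14). Nearest to JUN were VRK1 (0.06), with 6.68, 22.4 and 15.5 CPM in that order of groups, INCENP (0.07) and SMC2 (0.08). Nearest to FOS were CHEK1 (0.12), WDR76 (0.13) and CREB5 (0.15), and nearest to FOSB were C1H6orf163 (0.21), HYAL4 (0.29) and ANGPT2 (0.33). For FOS, FOSB, EGR1 and EGR3 the closest neighbour was less close than the closest of FOSL1 (0.05) or JUN (0.06). The measure is not scaled to a gene's range, which was 4.96 on the log2 scale for FOSB, nor to its counting noise. EGR1 was closest to DVL2 (0.12), GPANK1 (0.13) and BPGM (0.13), and EGR3 to CX3CL1 (0.11), MYCL (0.11) and TP53INP1 (0.12). FOSL2 was closest to GPD2, SLC12A4 and CDR2, each at 0.04. GPD2 fell in the same steps, with 174 ± 2.39, 121 ± 4.57 and 85.3 ± 3.38 CPM.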

How the data were processed

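Messenger RNA was sequenced from 9 libraries, 3 per group. The deposited values are raw counts per gene that the authors made with featureCounts, per the file headers and the submitters' processing notes, on reads basecalled with CASAVA 1.9 and trimmed with Trim Galore, on Sscrofa11.1. Neither the release of the annotation nor whether counting used strand is given in the sources used here. Transcript lengths and sequences were not used here. Genes with few counts were removed with filterByExpr of edgeR 4.0.16 (R 4.3.3, minimum count 10), which left 15956 of 27339 genes, and 3855 genes had no count. Libraries were scaled by TMM. The quasi-likelihood test was fitted to all 9 libraries with the 3 groups, and p-values were adjusted by Benjamini-Hochberg over all tested genes. The SE is the size of the log2 fold change over the square root of F, and intervals are 95%. Common dispersion was 0.00114 (between-library variation of 3.38%). No 2 libraries of a group held the same counts within sampling noise (chi-square per degree of freedom 2.62 to 17.9). The fit was tested on simulated data in which every gene had the common dispersion. That test does not cover genes of wider spread, such as FOSB and EGR1 with GFP.

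The 10 genes and the lists were chosen with earlier results of these data known. The rule for names was all 10 genes and, from each other list, up to 3 genes with the smallest p per comparison, and all movers in one direction where these were 5 or fewer. Some genes that this rule names are not reported here. Alternatives were other scalings (DESeq2 1.42.0 size factors, library size alone), other filters, DESeq2, limma-voom (limma 3.58.1), a replicate block, 6 libraries only and leaving out each library. They were extended to the other lists after seeing the data.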

Additional observations from a re-analysis of the deposited data

How the results depend on the processing

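Of 30 results for the 10 genes, 24 kept direction and call in all 17 alternatives. The 6 others were EGR1, EGR2, JUNB and JUND for DUX4 minus GFP, FOSL1 for DUXC minus GFP and FOS for DUX4 minus DUXC. Over left-out libraries the uncalled JUND value ranged from -0.07 to 0.03 and the uncalled JUNB value from -0.03 to 0.04. The JUND value, -0.01, turned to 0.01 with DESeq2 size factors, library size alone, DESeq2 and without GFP replicate 1, and to 0.03 without DUX4 replicate 3. The JUNB value turned to -0.03 without DUX4 replicate 1 and to 0.00 without DUX4 replicate 2 or GFP replicate 1. Of 192 named calls in the other lists, 179 were kept throughout and 13 were lost in some alternative, of which 3 changed sign: MAPK14 for DUXC minus GFP, 0.00 with DESeq2 size factors and DESeq2 and 0.05 with library size alone, FN1 for DUXC minus GFP, 0.02 with library size alone, and MKL1 for DUX4 minus DUXC, -0.02 with library size alone. Those scalings move all genes alike, the median by 0.077 (DESeq2 size factors) and 0.125 (library size alone) for DUXC minus GFP and by -0.101 (library size alone) for DUX4 minus DUXC, so such small values cross 0 by construction. For the other lost calls the cause was not tested. All 30 list counts stayed within 1.5 times. Leaving out 1 library gave 9791 to 10394 called genes for DUX4 minus GFP.

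Same-numbered libraries did not deviate together (correlations -0.0258 to 0.0318, beside -0.0285 to 0.0302 for other pairs between groups). Whether they were prepared in parallel cannot be told from these values. The replicate block gave 10272, 13125 and 13094 called genes for DUX4 minus GFP, DUXC minus GFP and DUX4 minus DUXC, and changed no call of the 10 genes. Summed family levels per length, promoter motifs and protein identity were not run. FOSB with GFP, EGR4 and ARC rest on few counts.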
